A study of Saccharomyces cerevisiae and Schizosaccharomyces pombe with 10 samples.

Results

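The large subunit ribosomal protein genes of the fission yeast Schizosaccharomyces pombe were described in a pool of nascent RNA, the RNA still attached to transcribing polymerases. The genes were chosen by name, as all protein-coding genes whose symbol is rpl or rpp followed by a digit. These are 86 of the 5113 protein-coding genes annotated on chromosomes I to III of assembly ASM294v3. The letters also match 3 genes of another function, rpp1, rpp21 and rpp40, whose annotated products are subunits of RNase P or RNase MRP. Each of these 3 had 0 reads, and the other 83 genes have a ribosomal product. One of the 83, rpl701, is annotated both as an L7-like ribosomal protein and as a subunit of RNase MRP.

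Of the 10 samples in the series, 1 is S. pombe, and only that one was used. It is strain L972, wild type and of mating type h-, grown with glucose in the rich medium YES at 30 °C and frozen during exponential growth. With 1 sample there was no spread between samples and no test between samples could be made. All intervals below are 95% intervals (Wilson for shares, exact Poisson for counts) and cover counting error only. Pacific Biosciences sequencing gave 16126 alignments of 16122 reads in 4 sequencing runs called movies, with a median aligned length of 157 nt and a longest alignment of 356 nt. Each alignment was counted as a read. Protein-coding genes held 2635 reads (16.3%), and the rpl and rpp genes 416 (2.58%).

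Ribosomes consist of a small and a large subunit. The large subunit joins amino acids into a peptide and holds the tunnel through which the new chain leaves, and its stalk of acidic P proteins, encoded by rpp genes, recruits the GTPases of translation. Ribosomal protein genes are among the most transcribed genes of growing yeast, many exist as near-identical copies called paralogues, and many carry an intron close to the start codon. The spliceosome can remove an intron while the polymerase is still transcribing. The 3' end of a nascent molecule marks how far the polymerase had come, and the rest of the molecule shows whether the intron behind it was gone. In fission yeast the promoters of these genes share a short element, the HomolD box, with the core CAGTCAC.

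The introns behind the splicing results are shown first, 5' to 3' on the coding strand, from the RefSeq genome of ASM294v3. They are the introns with at least 10 informative reads, with a 60-nt tail for the long intron of rpl35, and the intron of rpl1601, which had the lowest spliced share among introns with at least 5. Capitals mark the 6 bases of the 5' splice site, a branch-like stretch in the last 60 nt (the forms CTAAC and CTAAT, and the forms CTGAC and CTGAT) and the last 3 bases.
rpl4102, intron of 52 nt: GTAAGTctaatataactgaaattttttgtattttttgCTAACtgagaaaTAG
rpl4101, intron of 52 nt: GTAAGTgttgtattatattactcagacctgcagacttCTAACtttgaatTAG
rpl29, intron of 53 nt: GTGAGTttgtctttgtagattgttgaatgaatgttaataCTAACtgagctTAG
rpl1601, intron of 46 nt: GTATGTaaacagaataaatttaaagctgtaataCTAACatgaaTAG
rpp102, first intron of 139 nt: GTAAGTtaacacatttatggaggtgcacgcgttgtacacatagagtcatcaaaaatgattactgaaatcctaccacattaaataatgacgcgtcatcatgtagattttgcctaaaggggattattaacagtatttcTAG
rpl35, last 60 nt of an intron of 284 nt: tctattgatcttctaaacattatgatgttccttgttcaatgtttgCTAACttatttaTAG

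These introns lie at I:2853797-2853848 (rpl4102), I:5402111-5402162 (rpl4101), II:3172350-3172402 (rpl29), II:623953-623998 (rpl1601) and II:4009177-4009315 (rpp102), and the printed tail of the rpl35 intron at III:89137-89196. Each interrupts the coding sequence, and each is on the minus strand except that of rpl29. Of the 48 introns of the 83 ribosomal genes, 30 (62.5%) began with GTAAGT and 13 (27.1%) with GTATGT. Among 5185 protein-coding introns the shares were 27.7% and 19.9%. The ending TAG was present in 45 of the 48 (93.8%), against 68.6% of all. A branch-like stretch was found in 46 (95.8%), against 75.4% of all, and the form CTAAC in 34 (70.8%), against 44.6%. The first intron of rpp102 held none of the 4 forms in its last 60 nt, nor did the intron of rpl3703, and no match says only that these letters are not there.

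Reads were spread over most of the genes, with few on any single one. Of the 86 genes, 73 had a read. The mean was 4.84 and the median 4 reads per gene, against a mean of 6.49 and a median of 5 over the 55 rps genes of the small subunit. The 86 include the 3 RNase P or RNase MRP genes with 0 reads, which lowers the rpl and rpp mean. Over the 83 ribosomal genes the median was also 4. The other 4972 protein-coding genes had a mean of 0.375 reads and a median of 0. The 416 rpl and rpp reads (95% interval 377 to 458) made up 15.8% of the protein-coding reads, the 357 rps reads 13.5%. Identical alignments were rare, with 410 of the 416 reads (98.6%) distinct. No read had most of its aligned bases over an rpl or rpp gene on the opposite strand. The same held for rps genes, while 1346 reads lay so over the 4972 other protein-coding genes. Reads assigned to a gene on their own strand were not left out of these counts, so they do not measure antisense transcription. As 95% of the rpl and rpp reads were at most 324 nt long, counts were not divided by gene length. Their order is one of reads and not of transcription per length.

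Among the 83 ribosomal genes, 12 had at least 10 reads, 29 had 5 to 9, 32 had 1 to 4 and 10 had 0. The 12 highest held 140 reads (33.7%). The gene with most reads, rpl35 (III:88826-89576, minus strand), encodes a protein at the exit of the peptide tunnel, and it had 18 reads (10.7 to 28.5). The next was rpl3202 (I:3415408-3416056, minus strand), 1 of the 2 genes of eL32, with 14 reads (7.65 to 23.5). The pair of genes of eL41, a very short peptide at the interface of the subunits, came next, rpl4102 with 13 and rpl4101 with 12 reads. Then came rpl2002, rpl2802 and rpl902 with 11 reads each, and rpl2102, rpl2402, rpl29, rpl3001 and rpp102 with 10 reads each (4.80 to 18.4). The intervals of rpl35 and of these last genes overlapped, so the order within the 12 is not resolved at this depth.

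Reads of the stalk genes ran from 0 to 10. The anchor of the stalk, rpp0, had 0 reads, while the P1 genes rpp101, rpp102 and rpp103 had 6, 10 and 5 reads and the P2 genes rpp201, rpp202 and rpp203 had 5, 9 and 2. The 7 stalk genes held 37 reads in all. Besides rpp0, the ribosomal genes with 0 reads were rpl1001, rpl102, rpl1603, rpl1701, rpl1801, rpl2502, rpl3402, rpl35A02 and rpl39. A count of 0 allows up to 3 reads at this depth. For 2 of the 46 ribosomal proteins, the stalk anchor and eL39, a small protein of the exit tunnel, no gene had a read. Of the 46 proteins, 13 have 1 gene, 29 have 2 and 4 have 3.

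**Figure D1:**
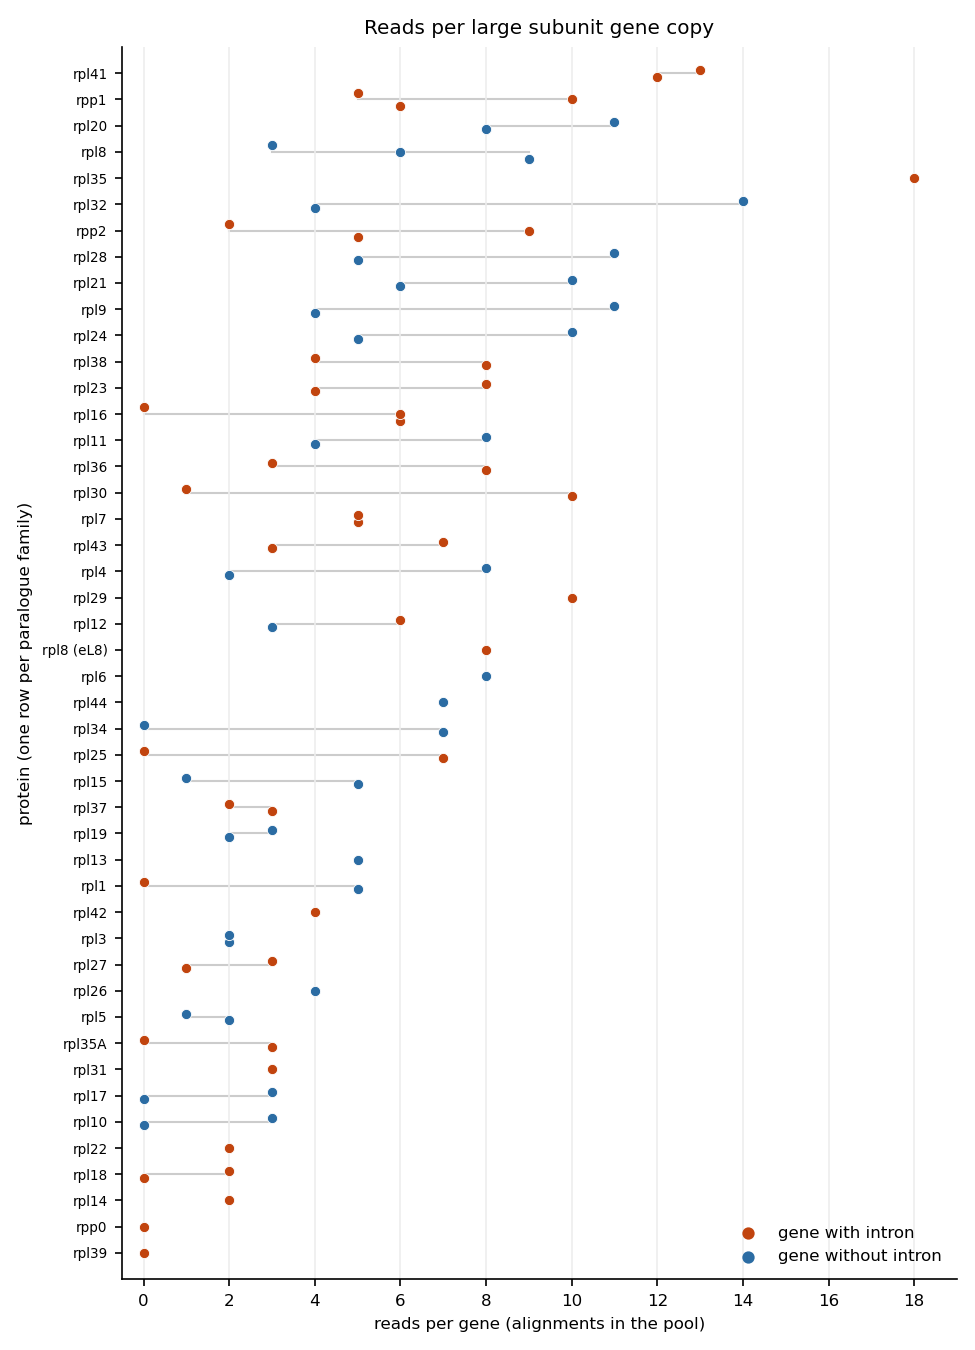
Reads per gene (horizontal axis) for the 46 ribosomal proteins of the rpl and rpp genes, 1 row per protein, with each point a gene copy, lines joining copies and colour for genes with or without an intron. Most copies lie between 0 and 10 reads, and the copies of rpl32 (4 and 14 reads) and rpl30 (10 and 1 reads) lie far apart.

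Paralogous copies of most proteins were both seen. In 25 of the 33 families with several copies every copy had a read. Copies with similar counts included those of rpl41, with 12 reads for rpl4101 and 13 for rpl4102. The first copy's share there was 48.0% (30.0 to 66.5%). The copies of rpl20 had 8 and 11 reads, those of rpl7 5 and 5, and rpl1601 and rpl1602, copies for uL13, 6 and 6. The copies of uL2, a protein near the peptidyl transferase centre, had 9 reads for rpl801, 6 for rpl802 and 3 for rpl803. Intermediate splits were 6 and 10 for rpl2101 and rpl2102, 5 and 10 for rpl2401 and rpl2402, 5 and 11 for rpl2801 and rpl2802, and 4 and 8 for rpl1101 and rpl1102 and again for rpl2301 and rpl2302. The copies rpl3601 and rpl3602 had 8 and 3 reads, rpl3801 and rpl3802 8 and 4, and rpl4301 and rpl4302 3 and 7.

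In 8 of the 41 pairs of copies the interval of the first copy's share did not hold 50%. For rpl3001 and rpl3002, copies for eL30, the counts were 10 and 1 (90.9%, 62.3 to 98.4%). The eL30 protein of budding yeast is known to repress splicing of its own transcript. For rpl3201 and rpl3202 the counts were 4 and 14 (22.2%, 9.0 to 45.2%). The stalk pair rpp202 and rpp203 had 9 and 2 reads (81.8%, 52.3 to 94.9%). In the other 5 pairs 1 copy had 0 reads, with 5 reads for rpl101 and 0 for rpl102, 6 for rpl1601 and 6 for rpl1602 with 0 for rpl1603, 7 for rpl2501 and 0 for rpl2502, and 7 for rpl3401 and 0 for rpl3402. No correction was made for the 41 intervals. Intervals held 50% for rpl901 and rpl902, with 4 and 11 reads (10.9 to 51.95%), and for rpl401 and rpl402, with 2 and 8 reads (5.67 to 50.98%).

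A read from 1 copy could have been placed on another where copies are nearly identical. The coding sequences of the pairs were from 66.1% (rpl3001 and rpl3002) to 99.6% identical (rpl1201 and rpl1202). Identity was over 95% in 3 pairs, with 3 and 6 reads for rpl1201 and rpl1202, 2 and 2 for rpl301 and rpl302, and 0 and 3 for rpl1001 and rpl1002. Introns also set copies apart. In 13 families every copy has its first intron after the same coding base, in 2 (rpl30 and rpl7) after different ones, and in 2 only some copies have an intron (rpl102 but not rpl101, rpl1202 but not rpl1201). The other 16 have none.

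Promoter sequence was read beside the first base of the reads. The 80 nt before the annotated start are shown for 5 of the 12 genes with most reads and for rpl2402, the only 1 of the 12 that lacks the HomolD core. They are 5' to 3' on the coding strand from the RefSeq genome of ASM294v3, with capitals for CAGTCAC or its reverse complement GTGACTG.
rpl35 (III:89577-89656, minus): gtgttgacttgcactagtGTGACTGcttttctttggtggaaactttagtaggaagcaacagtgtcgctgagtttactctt
rpl3202 (I:3416057-3416136, minus): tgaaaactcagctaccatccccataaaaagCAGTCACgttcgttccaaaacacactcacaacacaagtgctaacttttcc
rpl4102 (I:2853932-2854011, minus): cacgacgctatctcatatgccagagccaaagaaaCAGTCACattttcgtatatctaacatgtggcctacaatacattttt
rpl4101 (I:5402247-5402326, minus): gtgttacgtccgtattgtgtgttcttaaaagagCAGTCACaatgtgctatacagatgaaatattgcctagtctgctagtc
rpl29 (II:3172233-3172312, plus): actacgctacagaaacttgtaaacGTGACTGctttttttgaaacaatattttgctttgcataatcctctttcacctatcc
rpl2402 (III:138567-138646, minus): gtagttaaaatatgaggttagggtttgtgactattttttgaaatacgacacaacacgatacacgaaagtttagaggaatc

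The core CAGTCAC was found on either strand within 250 nt upstream of 76 of the 86 genes (88.4%, 79.9 to 93.6%). It was found at 50 of the 55 rps genes (90.9%), at 105 of the 4972 other genes (2.11%) and at 231 of all 5113 (4.52%). The 3 RNase P or RNase MRP genes among the 86 lacked the core, which lowers the rpl and rpp share. The longer form CAGTCACA, which contains the core, was found on either strand at 54 of the 86 (62.8%) and at 2.62% of all. The letters TATAAA, also searched on either strand, were found at 20 of the 86 (23.3%), against 44.4% of all. The 7 ribosomal genes without the core in this window were rpl1601, rpl2402, rpl2501, rpl31, rpl3601, rpp101 and rpp202, and each of them had reads, from 3 to 10. A match describes letters and is not evidence of a bound factor.

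The core stood at a narrow distance from the start of transcription. Counted from the first base of the nearest match to the annotated start, the median distance was 50.5 nt (quartiles 47 and 56), and 73 of 76 lay between 40 and 70 nt. Over the 35 genes with a match and at least 5 reads, the median distance to the commonest first base of the reads was 54 nt (45 to 82), with 33 between 40 and 70 nt. By annotation the median over the same genes was also 54 nt, with 32 between 40 and 70 nt. Ties for the commonest first base went to the base nearest the annotated start, which favours agreement with the annotation. At rpl2401, for example, the base chosen had 1 read. In 9 of the 35 genes the commonest read start lay more than 5 nt from the annotated one. For rpl902 the core lay 86 nt before the annotated start and 49 nt before the commonest read start. For rpl2802 the values were 73 and 57 nt, for rpl35 62 and 56 nt, for rpl802 66 and 46 nt, for rpl702 57 and 49 nt, for rpl15 50 and 60 nt, and for rpl13 54 and 61 nt. The distances by reads of rpl701, 82 nt against 16 nt by annotation, and of rpl2101, 71 nt against 53 nt, were the ones above 70 nt. The annotated starts of rpl902 and rpl2802 are marked as partial.

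Most reads began at or beside the annotated start. The median offset was 0, 149 reads (35.8%) began on the annotated base itself, and 267 (64.2%, 59.5 to 68.6%) within 5 nt of it. The share within 5 nt was 70.6% for rps genes (65.7 to 75.1%) and 57.1% for other genes (54.8 to 59.3%). Of the remaining rpl and rpp reads, 57 began more than 5 nt upstream and 92 more than 5 nt downstream. At rpl35, 12 of 18 reads began 6 nt upstream of the annotated base, while at rpl3202 8 of 14 began 4 nt downstream of it. At rpl4101, 9 of 12 reads began on the annotated base. The genes rpl35 and rpl902 are transcribed away from each other on chromosome III, with 203 nt between their annotated starts, and had 18 and 11 reads.

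**Figure D2:**
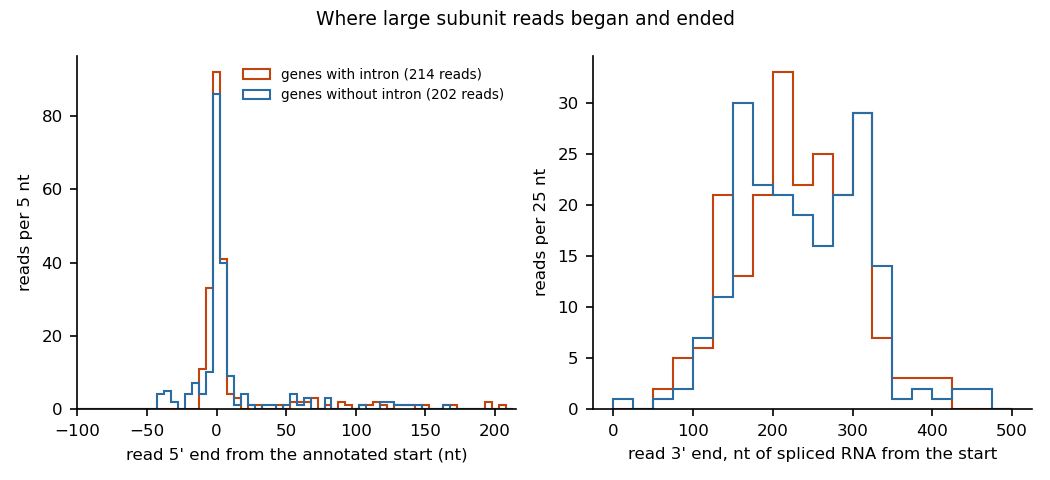
Left, offset of the first base of each rpl and rpp read from the annotated start in nt, with 1 read beyond the left edge. Right, position of the 3' end of each read along the spliced RNA in nt from the annotated start, for genes with and without an intron. Both vertical axes are numbers of reads, per 5 nt on the left and per 25 nt on the right. Starts gather at 0, and both groups of 3' ends have their middle near 230 nt.

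The 3' ends lay mostly in the early part of the gene. Counted along the spliced RNA, the median 3' end was 233 nt from the annotated start, with quartiles of 180 and 291 nt and a maximum of 464 nt. Aligned lengths ran from 62 to 339 nt with a median of 233 nt. As most reads began near the annotated start, these lengths set how far on a 3' end could be seen. The positions therefore do not show where along the gene polymerases were most frequent. In 361 reads (86.8%) the 3' end lay in a coding exon, in 43 (10.3%) in the annotated 3' UTR, in 10 in an intron, in 1 in the 5' UTR and in 1 past the annotated end. For rps genes 309 ends (86.6%) were coding and 36 (10.1%) in the 3' UTR. Other genes had 1311 (70.4%) and 13 (0.698%).

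The ends in 3' UTRs came from genes with a short coding sequence. The eL41 genes, whose coding sequence is 78 nt long, gave 11 each from rpl4101 and rpl4102. Then came rpl29 with 8, rpl3801 with 5, rpl4302 with 3, rpl3802 with 2, and rpl3001, rpl3702 and rpp201 with 1 each. At rpl4102 the annotated RNA is 233 nt long after splicing, and 5 of 13 reads ended within 25 nt of its annotated end. At rpl4101 it is 346 nt long, and 0 of 12 reads ended within 25 nt, the nearest being 57 nt short of it. Finished RNA in the pool cannot be told apart from nascent RNA whose polymerase had reached the end, which touches these reads of rpl4102 first.

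Genes without an intron resembled those with one in their read counts and ends. The 39 ribosomal rpl and rpp genes without an intron held 202 reads, with a median of 5 and a mean of 5.18 per gene, and 36 of them had a read. The 44 genes with an intron held 214 reads, with a median of 4 and a mean of 4.86, and 37 had a read. Median 3' ends were 233 and 231.5 nt from the start in genes without and with an intron. Median read lengths were 227 and 236 nt in the same order, and with reads that begin near the start they largely set these ends. Starts within 5 nt of the annotation were 61.9% (55.0 to 68.3%) without and 66.4% (59.8 to 72.4%) with an intron. None of the 202 reads of genes without an intron had an alignment gap, against 140 of the 214 reads of genes with one. Genes without an intron are longer, with a median RNA of 755 nt, against 501 nt after splicing for genes with one, and 0 of their reads ended in a 3' UTR, against 43.

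At least 5 reads were found on 20 of the 39 genes without an intron. The highest was rpl3202 with 14, followed by rpl2002, rpl2802 and rpl902 with 11 and rpl2102 and rpl2402 with 10. The gene rpl801 had 9, while rpl1102 (uL5, which binds the smallest ribosomal RNA), rpl2001, rpl402 (uL4, part of the tunnel wall) and rpl6 had 8. The genes rpl3401 and rpl44 had 7, rpl2101 and rpl802 had 6, and rpl101, rpl13, rpl15, rpl2401 and rpl2801 had 5. All 5 reads of rpl15 came from the later movies.

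Introns of rpl and rpp genes were mostly gone from the nascent reads that had passed them. A read that began before an intron and ended after it could tell, and is called informative. A read that crossed several introns is counted once at each, here and below, so these counts exceed the number of molecules read. The intervals treat such counts as independent. Of 157 informative reads counted in this way over 34 introns in 32 genes, 145 were spliced (92.4%, 87.1 to 95.6%). The share was 160 of 166 (96.4%, 92.3 to 98.3%) for rps genes and 346 of 472 (73.3%, 69.1 to 77.1%) for other protein-coding genes. The 472 include 1 read called unspliced at hhf1, where the annotated exons gave an intron length of -203 nt and so no real intron. Of the 34 introns, 27 had no unspliced read. Unspliced molecules are longer, so read length limits what could be seen. Of the spliced reads, 74 (51%) in rpl and rpp genes, 104 (65.0%) in rps genes and 226 (65.3%) in other genes would have been no longer than the longest read had they kept the intron.

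That limit fell hardest on particular introns. For 24 of the 34 introns, a read from the annotated start across the retained intron could be no longer than 356 nt, and there 104 of 116 reads were spliced (89.7%, 82.8 to 93.98%). For the other 10, in rpl14, rpl2302, rpl2501, rpl35, rpl3601, rpl3801 (second intron), rpl701, rpl702, rpp201 and rpp202, it would be longer, and 41 of 41 reads were spliced. At rpl35, for example, the 3' splice site lies 440 nt into the unspliced RNA. The 24 introns were not free of the limit, since it also held for reads that ended far past the intron. With the intron kept, 4 of 6 spliced reads in rpp101, 5 of 7 in the first intron of rpp102 and 4 of 5 in rpp103 would have been longer than any alignment. In rpl4101 and rpl4102 0 of 9 and 0 of 10 would have been. The 14 ribosomal introns without an informative read had their 3' splice site at a median of 266 nt in the spliced RNA, against 128.5 nt for the 34 with reads.

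**Figure D3:**
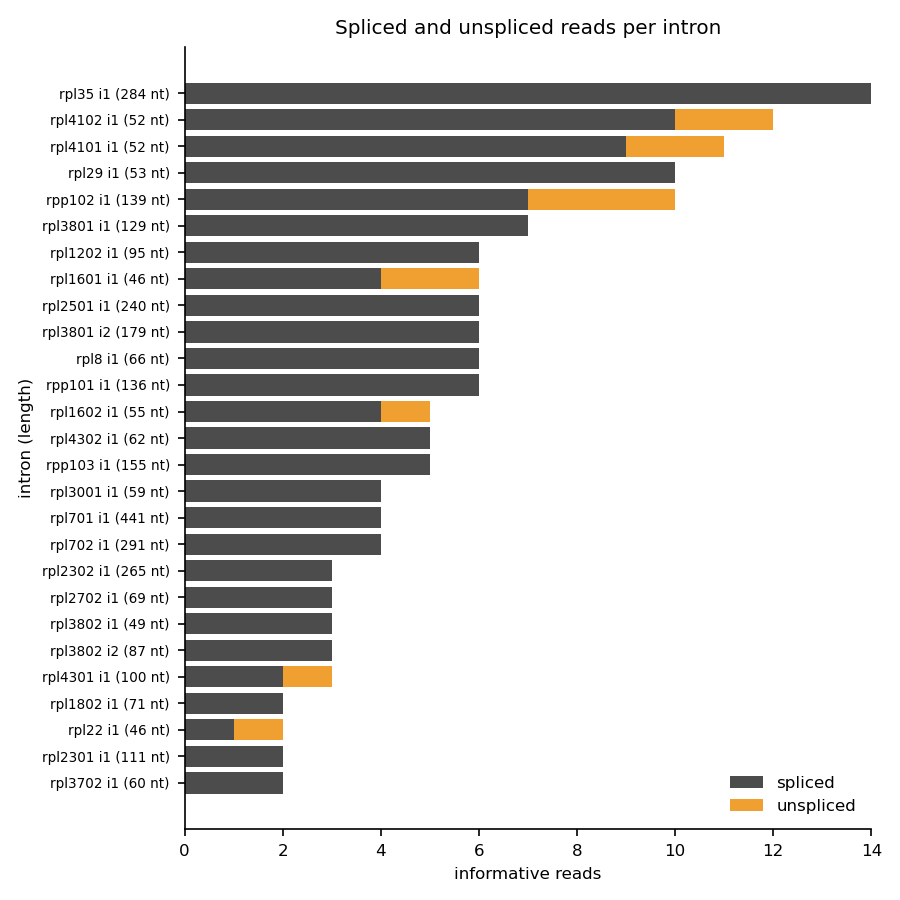
Spliced and unspliced reads for each rpl and rpp intron with at least 2 informative reads, with bar length the number of reads. Unspliced reads appear in 7 introns, with at most 3 in any of them.

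At least 5 informative reads were found for 15 introns, and in 10 of them every read was spliced. These were rpl35 with 14 of 14 (78.5 to 100%), rpl29 with 10 of 10, the introns of rpl3801 with 7 of 7 and 6 of 6, rpl1202, rpl2501, rpl8 and rpp101 with 6 of 6 each, and rpl4302 and rpp103 with 5 of 5 each. Spliced reads short enough to have been seen unspliced were 0 of 14 in rpl35 and 0 of 6 each in rpl2501 and the second intron of rpl3801. Full splicing there was set by read length and does not measure splicing. The numbers were 2 of 6 in rpp101, 1 of 5 in rpp103, 9 of 10 in rpl29 and 5 of 6 in rpl8. Background roles differ among them: rpl2501 encodes a protein beside that of rpl35 at the tunnel exit, rpl1202 one at the base of the stalk, and rpp101 and rpp103 P1 proteins of the stalk. Their introns ran from 53 nt (rpl29) to 284 nt (rpl35, III:89137-89420).

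The other 5 introns had unspliced reads. The first intron of rpp102 had 7 spliced of 10 (70%, 39.7 to 89.2%), rpl1601 4 of 6 (66.7%, 30.0 to 90.3%), rpl1602 4 of 5 (80%, 37.6 to 96.4%), rpl4101 9 of 11 (81.8%, 52.3 to 94.9%) and rpl4102 10 of 12 (83.3%, 55.2 to 95.3%). Each of these intervals overlaps the pooled interval of 87.1 to 95.6%. Below 5 reads, unspliced molecules were seen in rpl4301 (1 of 3) and in the first intron of rpl22 (1 of 2). Between paralogues, rpp102 with 7 of 10 stood beside rpp101 with 6 of 6 and rpp103 with 5 of 5, and the 3 intervals overlap. Read length limits this comparison, since only 2 of 7, 2 of 6 and 1 of 5 of their spliced reads could have been seen unspliced. The median share over the 15 introns was 100%.

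The distance of the 3' end past the 3' splice site says how far the polymerase was when the molecule was caught. In spliced reads the median distance was 135 nt (12 to 487), and in the 12 unspliced reads 88 nt (13 to 202). In rpp102 the unspliced reads ended 16, 34 and 63 nt past the splice site. Its spliced reads ended at 74, 112, 164, 185, 214, 221 and 240 nt, so both kinds did not overlap there. Of these 7 spliced reads, 5 would have been longer than the longest alignment had they kept the intron, so unspliced molecules that reached as far could hardly have been seen. Both kinds did overlap in the eL41 genes. Unspliced reads of rpl4101 ended at 77 and 123 nt and spliced ones at 63, 75, 76, 100, 121, 122, 191, 204 and 205 nt. Unspliced reads of rpl4102 ended at 99 and 172 nt, the second past the annotated end of the gene, and spliced ones from 74 to 138 nt. In the uL13 genes unspliced reads ended far on, at 129 and 190 nt in rpl1601 and at 202 nt in rpl1602. Spliced reads there ended at 87, 131, 167 and 245 nt in rpl1601 and at 157, 189, 228 and 232 nt in rpl1602.

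**Figure D4:**
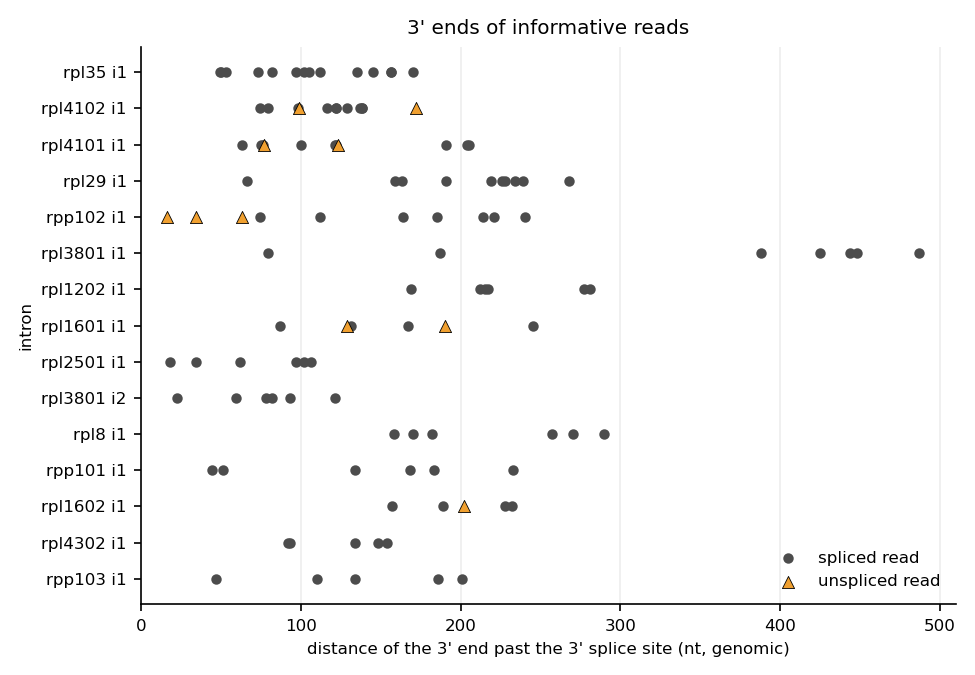
Distance of the 3' end past the 3' splice site in nt for every informative read of the 15 introns with at least 5, with spliced and unspliced reads marked. In rpp102 the 3 unspliced reads, at 16 to 63 nt, lie below all 7 spliced ones, 5 of which would have been longer than any alignment with the intron kept, while in rpl4101, rpl1601 and rpl1602 they lie among them and in rpl4102 1 lies among and 1 beyond them.

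Spliced molecules were seen close to the splice site. The nearest 3' ends of spliced reads were 12 nt past it in rpp202, 13 in rpl2301, 18 in rpl2501, 22 in the second intron of rpl3801, 24 in that of rpl3802 and 25 in rpl3702. In rpl2501 the 6 spliced reads ended at 18, 34, 62, 97, 102 and 106 nt, and in rpp101 at 44, 51, 134, 168, 183 and 233 nt. At rpl35 the 14 spliced reads ended between 49 and 170 nt and at rpl29 the 10 ended between 66 and 268 nt. The single unspliced reads of rpl4301 and rpl22 ended at 13 and 22 nt, nearer than any spliced read of the same intron.

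By distance, 6 of 9 reads (66.7%, 35.4 to 87.9%) that ended 1 to 25 nt past the splice site were spliced. The shares were 9 of 10 (90%, 59.58 to 98.2%) at 26 to 50 nt, 36 of 39 (92.3%, 79.7 to 97.4%) at 51 to 100 nt, 59 of 63 (93.7%, 84.8 to 97.5%) at over 100 to 200 nt and 35 of 36 (97.2%, 85.8 to 99.5%) at over 200 to 500 nt. The intervals of neighbouring bins overlap, and the first bins hold 9 and 10 reads. Read length limits each bin, since the spliced reads that could have been seen unspliced were, from the nearest bin to the farthest, 4 of 6, 3 of 9, 18 of 36, 29 of 59 and 20 of 35. For rps genes the 5 shares in the same order were 85.7%, 100%, 97.1%, 94.4% and 98.4%. For other protein-coding genes they were 68.9%, 83.0%, 65.1%, 68.4% and 89.2%, with the read of hhf1, which crossed no real intron, counted at 51 to 100 nt. At 51 to 100 and at over 100 to 200 nt the intervals of rpl and rpp genes and of other genes (55.6 to 73.5% and 61.2 to 74.8%) did not overlap. Read length limited the groups unequally there. In other genes 46 of 69 and 75 of 121 spliced reads could have been seen unspliced, a larger share than in rpl and rpp genes.

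**Figure D5:**
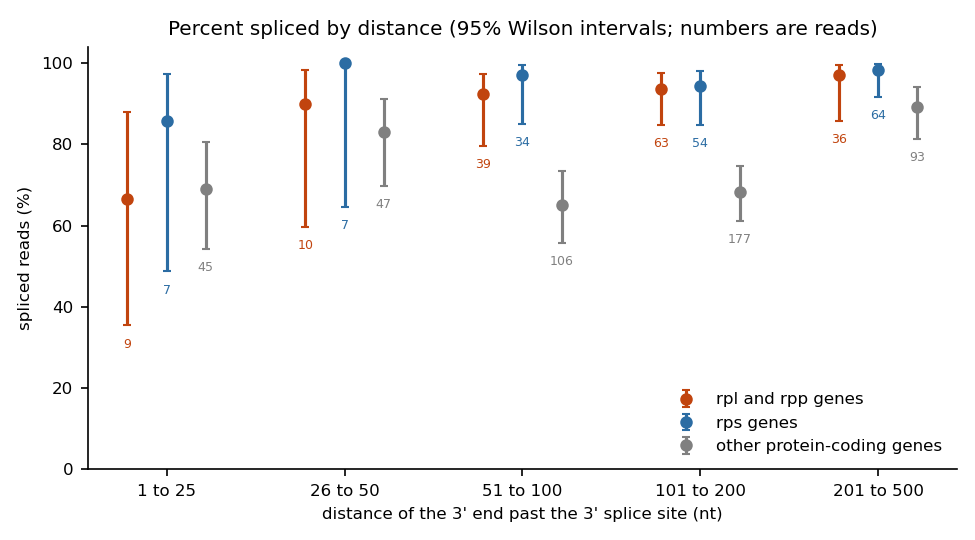
Percent of informative reads that were spliced, by distance of the 3' end past the 3' splice site in nt, for rpl and rpp, rps and other protein-coding genes, with 95% Wilson intervals as bars. From 51 to 200 nt the rpl and rpp values of 92.3% and 93.7% lie above those of other genes. A smaller share of the rpl and rpp spliced reads there could have been seen unspliced.

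Where reads crossed 2 introns, both were gone. Such reads were 5 at rpl3801 and 2 at rpl3802, copies for eL38, and all 7 were spliced at each intron. Each of the 7 would have been longer than the longest alignment had it kept the second intron. Such molecules with that intron kept could therefore hardly have been seen. All but 2 of the 147 gaps in rpl and rpp reads lay exactly at annotated introns. One exception was a read of rpl35 with a gap at III:89133-89420, from the annotated 5' splice site to an AG 4 nt past the annotated one. The bases around that 3' splice site (III:89125-89148, minus strand) are shown with capitals from the annotated TAG to the further AG.
rpl35, 3' splice site: acttatttaTAGTAAGactacccg
The other was a read of rpl3601 with a gap of 162 nt at III:506485-506646, shifted by 7 and 8 nt from the annotated intron and without GT and AG at its ends.

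Some 3' ends lay at or within introns. The first step of splicing frees an exon that ends on the last base before the intron, and a nascent RNA can end there too, so the origin of such ends cannot be told apart. Of the 214 reads of rpl and rpp genes with an intron, 5 ended on that base (2.34%, 1.00 to 5.35%). The shares were 2 of 210 in rps genes (0.952%, 0.262 to 3.41%) and 92 of 836 in other genes (11%, 9.06 to 13.3%). The 5 reads were 2 at rpl3001, 1 at rpl3602 and 1 each at the second introns of rpl3801 and rpp102, and the last pair was already spliced at the first intron. None of the reads ended on the 5 bases before it.

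Inside introns, 10 of the 214 reads ended (4.67%, 2.56 to 8.39%), against 12 of 210 in rps genes (5.71%) and 145 of 836 in other genes (17.3%, 14.9 to 20.1%). In rpl2302 they stood at bases 3, 67 and 153 of 265, in rpl35 at bases 94 and 95 of 284. Single reads ended in rpl14 at base 238 of 244, in rpl2501 at 92 of 240, in rpl3001 at 40 of 59, in rpl3601 at 3 of 161 and in rpl702 at 271 of 291. The reads of rpl14 and rpl702 also began inside the intron, at base 51 in rpl14 and on the first base in rpl702, and held no exon sequence, while the other 8 began before the intron. None of the 10 ended on the last base of an intron, and the origin of the reads within an intron was not tested.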

How the data were processed

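The deposited file for S. pombe lists genome alignments, 1 per line, with their ends, strand and blocks. One field is a score deposited by the authors, which is 40 throughout and played no part. Per the labels' protocols, nascent RNA was ligated at its 3' end to an adaptor, turned into cDNA with a SMARTer kit and amplified by PCR before Pacific Biosciences sequencing. The submitters' processing notes name cutadapt version 1.8 and the build sacCer3, but the chromosomes are those of S. pombe. The aligner was not given in the sources used here.

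Annotated genes and introns are RefSeq's for ASM294v3, and coordinates count from 1. A read went to the gene on its strand with the largest overlap, and 138 reads wholly inside an intron of rpl701 that holds a snoRNA were left out. Informative reads reached at least 1 nt beyond each end of an intron, and were counted once for each intron they crossed. They counted as spliced where a gap matched both ends to within 3 nt, and as unspliced where the intron was aligned without a gap. Those with a different gap, 2 in rpl and rpp genes, were left out. For a first intron, the distance of a 3' end past the 3' splice site is genomic and includes any second intron.

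Genes named in the text were the 12 with most reads, introns with at least 5 informative reads, genes with an unspliced read, genes without an intron with at least 5 reads, and families of copies with at least 10 reads. Genes with 0 reads, genes at odds with a group and the nearest 3' ends were named after their values were seen. The members and lists were chosen with earlier results of these data known. Shares have Wilson and counts exact Poisson intervals at 95%, and a count of 0 is given a limit of 3 counts. PCR copies were not removed, since the adaptor's random bases were not used, so reads are not independent molecules. The 4 movies, 2 earlier with 7305 and 2 later with 8821 alignments, share 1 sample and are no replicates. Read calling was tested on simulated alignments built at annotated introns, which checks the calling rule and not the alignment of reads. Python 3.11.15, numpy 2.4.6, scipy 1.17.1 and biopython 1.88 were used.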

Additional observations from a re-analysis of the deposited data

Results flagged for a closer look

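The intron of rpl701 (II:1791646-1792086, 441 nt) holds the snoRNA snoR39b (II:1791743-1791820). Outside the main measurement, 138 reads lay wholly inside this intron, and all 138 overlapped the snoRNA. They form 13 distinct alignments of 67 to 166 nt. A further 23 reads were assigned to snoR39b itself. The gene rpl701 had 5 reads of its own, and its intron reads were left out of every count above. Their origin was not tested.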

How the results depend on the processing

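The earlier movies alone gave 190 reads on rpl and rpp genes and the later ones 226, against 416 in all, which follows from using part of the library. Keeping the reads inside the snoRNA host intron gave 554, requiring most of a read's bases to lie in the gene gave 415, and counting identical alignments once gave 410. The pooled spliced share of rpl and rpp genes lay between 87.9% (3' ends within 100 nt of the splice site) and 95% (earlier movies, against 89.6% in the later ones) over the settings chosen at the outset. An alternative chosen after seeing the data kept only reads whose unspliced form would be no longer than the 95th percentile of read lengths, 296 nt. It lowered the share to 80.9% of 47 reads in rpl and rpp genes, 88.9% of 45 in rps genes and 54.95% of 222 in other genes, and the order of the 3 groups stayed. A second one, also chosen after seeing the data, used reads that began within 5 nt of the annotated start and gave 89.7% for rpl and rpp genes. The median over introns was 91.7% in the earlier movies (4 introns), 83.3% in the later ones (5 introns) and 83.3% with at least 10 reads per intron (5 introns). By movie, rpl1601 had 100% of 3 reads in the earlier and 33.3% of 3 in the later, and rpl1602 66.7% of 3 and 100% of 2. Depth limits each intron, since no more than 14 reads were informative for any, and at 10 of the 34 introns an unspliced read from the annotated start would be longer than any alignment. No paired analysis was possible because the species has 1 sample.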
